A study of Mus musculus with 12 samples.

Results

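A set of 10 genes of T cells and of lymphocytes that live within the intestinal epithelium was followed in 2 segments of the mouse small intestine, proximal and distal, and in 2 genotypes, wild type (WT) and Bmpr1a cKO. The genes were taken by symbol from the expression table, which held all 10 among its 17175 genes. The rule was a list of names, written when earlier results of these data were known. They were Gzma and Gzmb (granzymes), Cd3d, Cd3e and Cd3g (CD3 chains), Cd8a and Cd8b1 (CD8 chains), Itgae (the alpha E integrin, CD103), Cd160 and Cd7.

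Intraepithelial lymphocytes sit between enterocytes along the villus. Most are T cells, bearing either alpha beta or gamma delta T cell receptors, and many carry CD8 as a homodimer of alpha chains instead of the alpha beta heterodimer of conventional CD8 T cells. CD103 binds E-cadherin on the epithelial cells, and granzymes are serine proteases stored in cytotoxic granules. Granzymes, CD160 and CD7 are also made by natural killer cells, so these 10 genes mark cytotoxic and tissue-resident lymphocytes more broadly than T cells alone.

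The study asked how BMP signals to epithelial cells relate to villus length in different parts of the small intestine. Total RNA of small intestine was sequenced in 12 libraries, 3 each of WT proximal, WT distal, cKO proximal and cKO distal. Bmpr1a encodes a cell surface receptor of the BMP pathway, and cKO stands for a conditional knockout. The Cre driver, the strain, the age and the sex of the mice, and where along the intestine each segment was cut, are not given in the sources used here. Nothing in the labels ties the 3 libraries of a group to separate mice, so each p-value reflects library-to-library spread only, part of which may be technical. Bmpr1a itself stood at 772 to 1029 scaled reads in WT proximal, 833 to 1087 in cKO proximal, 438 to 631 in WT distal and 486 to 668 in cKO distal libraries. A count over the whole gene includes exons outside a deleted part and checks neither the deletion nor the labels. The RNA came from tissue holding many cell types, so fewer lymphocytes and less of a transcript per lymphocyte cannot be told apart.

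The CD3 genes lie side by side on chromosome 9 (mm10), with 1354 bases between Cd3g (44969572 to 44980431, minus strand) and Cd3d (44981786 to 44987339, plus strand) and 11400 bases between Cd3d and Cd3e (44998740 to 45009627, minus strand). The CD8 genes lie on chromosome 6, Cd8b1 from 71322788 to 71337494 and Cd8a from 71373427 to 71379173, both on the plus strand. Gzma lies on chromosome 13 (113093825 to 113100981, minus strand), Gzmb on chromosome 14 (56258838 to 56262260, minus), Itgae on chromosome 11 (73090583 to 73147446, plus), Cd7 on chromosome 11 (121036747 to 121039418, minus) and Cd160 on chromosome 3 (96798763 to 96829351, minus). Because most of these genes varied together, the 250 bases before the start of 4 of them are shown: the granzymes, whose levels differed most between WT segments, Cd8a, and Cd3d, which differed less. The sequences are RefSeq's for GRCm38.p6, read 5′ to 3′ on the gene's strand. Capitals mark TGTGGT, a core bound by Runx factors, and AGGAAG, a core bound by Ets factors, on either strand (ACCACA and CTTCCT on the other).
Gzma, chr13:113100982-113101231, minus strand: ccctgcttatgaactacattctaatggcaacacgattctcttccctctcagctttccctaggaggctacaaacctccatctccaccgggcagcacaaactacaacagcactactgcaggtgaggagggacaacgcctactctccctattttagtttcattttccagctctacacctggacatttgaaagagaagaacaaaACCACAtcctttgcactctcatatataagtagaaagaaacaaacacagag
Gzmb, chr14:56262335-56262584, minus strand: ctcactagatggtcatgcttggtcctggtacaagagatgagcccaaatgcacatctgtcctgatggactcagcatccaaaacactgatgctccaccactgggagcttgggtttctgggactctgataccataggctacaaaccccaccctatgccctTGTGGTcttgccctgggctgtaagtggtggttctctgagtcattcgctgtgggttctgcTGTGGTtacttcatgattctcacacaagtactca
Cd8a, chr6:71373177-71373426, plus strand: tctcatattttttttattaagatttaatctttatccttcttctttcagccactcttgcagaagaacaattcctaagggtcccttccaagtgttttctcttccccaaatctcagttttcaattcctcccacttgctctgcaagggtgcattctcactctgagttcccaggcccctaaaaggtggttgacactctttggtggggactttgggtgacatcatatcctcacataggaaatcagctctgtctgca
Cd3d, chr9:44981536-44981785, plus strand: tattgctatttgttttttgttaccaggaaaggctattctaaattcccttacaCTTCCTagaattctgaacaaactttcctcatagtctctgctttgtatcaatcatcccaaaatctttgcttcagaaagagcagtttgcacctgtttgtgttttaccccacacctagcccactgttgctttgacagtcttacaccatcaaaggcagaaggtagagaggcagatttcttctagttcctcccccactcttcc
The Gzma window held 1 Runx match, the Gzmb window 2 Runx matches, the Cd3d window 1 Ets match and the Cd8a window none of either. RefSeq windows were at hand for 7 members, with 8 windows in all since Cd160 had 2. Runx letters occurred in 4 of the 8 windows and in 14.0% of 32851 promoter windows of mouse genes, and Ets letters in 4 of the 8 and in 29.5%. Both Cd160 windows held a match to each of these cores, so that gene gave 2 of the 4 windows for either core. Of the other motifs searched on both strands, the E-box CAGGTG occurred in 4 of the 8 (17.2% of all), the Tcf/Lef core CTTTGA in 2 (13.8%), the Gata core AGATAA in 1 (9.99%) and the BMP-type Smad site GGCGCC in 0 (9.59%). No core contains another, although matches to different cores can share letters at their ends, and a match is a description of these windows only.

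**Figure D1:**
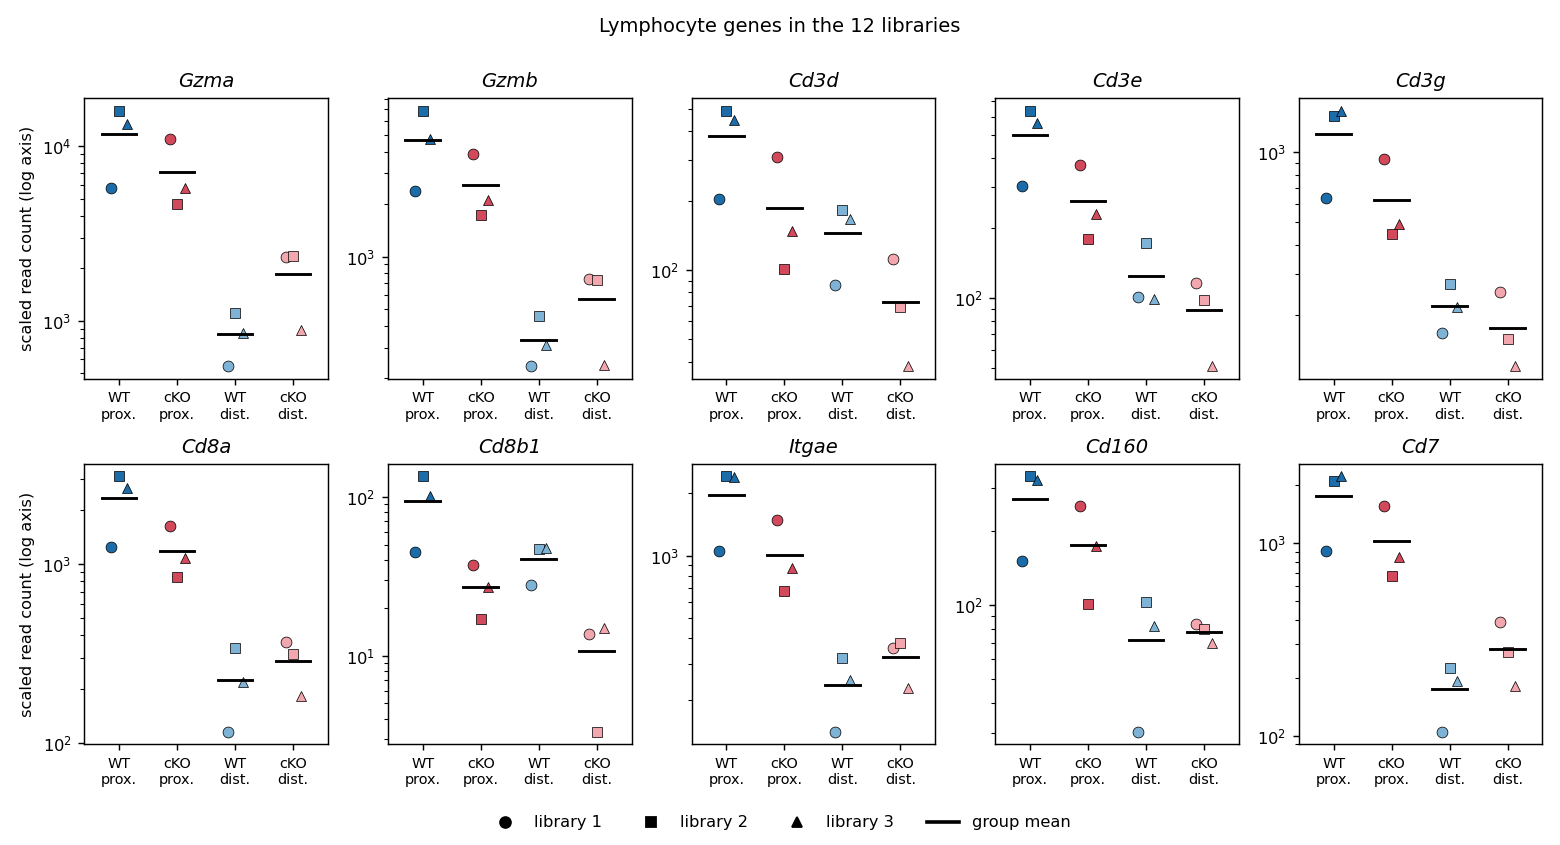
Scaled read count (log axis) of each of the 10 genes in the 12 libraries, by group, with the symbol shape giving the library number and a bar at the group mean. WT proximal libraries stood highest on average for every gene, WT proximal 1 was the lowest of its group for all 10, and Cd8b1 alone had cKO libraries below WT libraries in both segments without overlap.

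Some libraries stood apart from their group for the whole set. WT proximal 1 held the lowest value of its group for all 10 genes, cKO proximal 1 the highest of its group for all 10, and cKO proximal 2 the lowest for all 10. In 9 of 10 genes cKO proximal 1 exceeded WT proximal 1. In the distal groups, WT distal 1 was lowest for 9 genes and WT distal 2 highest for 9, and cKO distal 3 was lowest for 9. Both cKO libraries numbered 1 held no reads of 4 Y-linked genes that had reads in every other library. Mitochondrially encoded genes took 17.4 to 26.0% of the reads in WT proximal, 22.3 to 37.7% in WT distal and 9.75 to 14.8% in cKO proximal libraries. In cKO distal they took 9.95 to 27.7%, with library 3 at the top. The share was thus lower in cKO than in WT tissue, without overlap in the proximal segment and on average in the distal one (16.4% against 29.8%). In a fit that includes this share, its effect and that of genotype cannot be fully told apart. Total recovered reads ranged from 11242024 to 17722756 per library.

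Per kilobase of exon, Gzma had the highest level of the 10 in each of the 4 groups, followed by Gzmb and Cd7. In WT proximal libraries the level per kilobase was 11669 ± 5280.1 (SD, n = 3) for Gzma, 3241 ± 1568 for Gzmb and 1549 ± 643 for Cd7. Next came Cd8a at 640.2 ± 266, Itgae at 427 ± 170.3 and Cd3g at 364 ± 147, followed by Cd3d at 210.3 ± 85.5, Cd3e at 123 ± 43.1, Cd160 at 102 ± 39.2 and Cd8b1 at 63.2 ± 30.5. Neighbours in this order from Cd8a down to Cd8b1 differed by less than the SD of the higher of each pair, except Cd3g over Cd3d and Cd3d over Cd3e. These SDs are spreads between libraries, and within each WT proximal library Cd8a stood above Itgae and Itgae above Cd3g. In WT distal libraries Cd3d, at 80.1 ± 28.4, stood above Cd8a, at 61.7 ± 30.6, a difference smaller than either SD but of the same direction in each library of the group. Cd8b1 was the lowest of the 10 in both cKO groups and in WT proximal libraries, and lay just above Cd160 in WT distal libraries.

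The first comparison asked how these genes differed along the WT intestine. Distal tissue held far less of the granzyme, CD8 alpha, CD103 and CD7 transcripts than proximal tissue, and less of Cd3e, Cd3g and Cd160. Of the 10 genes 8 fell, 0 rose, and 2 (Cd3d and Cd8b1) did not pass the test (limma, adjusted p under 0.05); 12.2% of all genes tested were called lower in the same comparison. The median log2 fold change of the 10 genes was -2.69, against 0.04 over all genes. For 9 of the 10 every distal value lay below every proximal value, a pattern that 18.8% of all genes showed.

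The granzymes differed most. Gzma, a tryptase that is the most abundant of these transcripts, stood at 5791, 16009.7 and 13417 scaled reads in WT proximal and at 549, 1109.8 and 845 in WT distal libraries 1 to 3. Gzmb, which cleaves after aspartate and activates caspases, stood at 2366, 6867 and 4729.9 against 235, 454 and 312. The proximal and distal values of both genes were far from overlapping, and library 1 was the lowest of each WT group. Gzma fell 13.4-fold (log2 fold change -3.74, SE 0.45, adjusted p = 6.04e-05) and Gzmb 13.2-fold (-3.72, SE 0.46, adjusted p = 8.07e-05).

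Of the 2 CD8 chain genes, Cd8a fell and Cd8b1 was not called. Cd8a, whose product pairs with itself or with the beta chain, stood at 1237, 3086 and 2663 in WT proximal and at 116, 338 and 219 in WT distal libraries. It fell 10.5-fold (log2 fold change -3.40, SE 0.41, adjusted p = 6.37e-05). Cd8b1, which encodes the beta chain of the conventional coreceptor, stood at 45.3, 135 and 101 against 28.0, 47.3 and 47.4. The lowest proximal value of Cd8b1, in library 1, lay below the 2 higher distal ones, and its log2 fold change of -1.08 (SE 0.54, 95% interval -2.24 to 0.08) did not pass (adjusted p = 0.172). Cd8b1 rested on few reads, 42 to 119 per proximal and 22 to 45 per distal library, and part of its transcript is at least 95% identical to 11 other genes, so its counts are uncertain.

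Among the CD3 genes, which encode the signalling chains of the T cell receptor complex, Cd3g and Cd3e fell. Cd3e stood at 304, 639 and 565 in WT proximal and at 101, 173 and 99.1 in WT distal libraries, a 3.96-fold difference with no overlap (log2 fold change -1.99, SE 0.38, adjusted p = 0.00185). Cd3g went from 1191 ± 482 to 218 ± 51.7 (SD, n = 3), or 5.16-fold (-2.37, SE 0.37, adjusted p = 0.000453). Cd3d went from 204, 492 and 449 to 86.5, 183 and 167. Its groups did not overlap, but its log2 fold change of -1.36 (SE 0.48) missed the threshold at adjusted p = 0.0528.

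The genes of epithelial residence and of the surface receptors fell as well. Itgae stood at 1056, 2409.9 and 2404 in WT proximal and at 141, 322 and 251 in WT distal libraries (8.09-fold lower, log2 fold change -3.02, SE 0.38, adjusted p = 8.54e-05). Cd7, an immunoglobulin superfamily protein of T and natural killer cells, stood at 917, 2116 and 2232 against 105, 225 and 192 (9.80-fold lower, -3.29, SE 0.41, adjusted p = 7.28e-05). Every distal value of both lay well under every proximal one. Cd160, a receptor for the TNF receptor family member HVEM, went from 269.9 ± 103 to 71.8 ± 37.3 (-1.98, SE 0.45, adjusted p = 0.00579). Of the exon bases of Cd7, 122 (10.8%) lie in exons of Gm11775 on the other strand, and of those of Cd160, 68 (2.57%) lie in exons of Pdzk1, also on the other strand. Pdzk1 averaged 1919 scaled reads in WT proximal and 1586 in WT distal libraries, far above Cd160. Of the exon bases of Cd3e, 135 (3.31%) lie in exons of Gm48719 on the other strand. Whether the counting used strand is not given in the sources used here.

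Libraries of a genotype share a sample name between segments. With that name as a block, all 10 genes were called lower in WT distal tissue (14.3% of all genes were called lower in that fit), Cd3d at adjusted p = 0.00226 and Cd8b1 at adjusted p = 0.0369. Across all other fits and left-out libraries the count lay between 8 and 9. Cd3d also passed in limma without WT proximal 1 (adjusted p = 0.0262), without both cKO libraries numbered 1 (0.0303), with only the 2 groups compared (0.0422) and with TMM factors (0.0483). It passed in edgeR (adjusted p = 0.0378) and DESeq2 (0.0137) as well. With another library left out its adjusted p in limma reached 0.185.

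In cKO tissue the same segments were compared. Of the 10 genes 7 fell and 0 rose from proximal to distal, where 6.36% of all genes were called lower; the 3 not called were Cd3d, Cd8b1 and Cd160. The median log2 fold change of the 10 genes was -1.69, against -0.02 over all genes. For 9 genes (all but Cd3d) the groups did not overlap, as for 16.2% of all genes. Gzma stood at 10966, 4644 and 5792 in cKO proximal and at 2316, 2349.8 and 887 in cKO distal libraries (3.94-fold lower, log2 fold change -1.98, SE 0.45, adjusted p = 0.0119). Gzmb stood at 3888, 1726 and 2121 against 738, 730.2 and 237 (4.80-fold lower, -2.26, SE 0.46, adjusted p = 0.00589). Cd8a stood at 1636, 848 and 1077 against 368, 315 and 183 (4.12-fold lower, -2.04, SE 0.41, adjusted p = 0.00537). In each of these 3 genes cKO proximal 1 was the highest library and cKO distal 3 the lowest.

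Of the other genes in cKO tissue, Cd7 fell from 1033 ± 473 to 282 ± 105 (SD, n = 3; log2 fold change -1.85, adjusted p = 0.00936) and Itgae from 1005 ± 421 to 322 ± 80.6 (-1.59, adjusted p = 0.0151). Cd3g fell from 623 ± 267 to 177 ± 67.5 (-1.79, adjusted p = 0.00583) and Cd3e from 260.3 ± 99.5 to 88.5 ± 33.8 (-1.56, adjusted p = 0.0159). Cd3d (-1.31, adjusted p = 0.102), Cd8b1 (-1.42, adjusted p = 0.119) and Cd160 (-1.07, adjusted p = 0.155) had the same sign. With the sample name as a block all 10 were called lower (8.89% of all genes), these 3 at adjusted p = 0.00479, 0.0178 and 0.0187. The count of 7 depended on single libraries: 3 genes were called lower without cKO proximal 1 (3.58% of all genes), 4 without cKO distal 3 (4.7%) and 4 without both cKO libraries numbered 1 (3.22%).

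**Figure D2:**
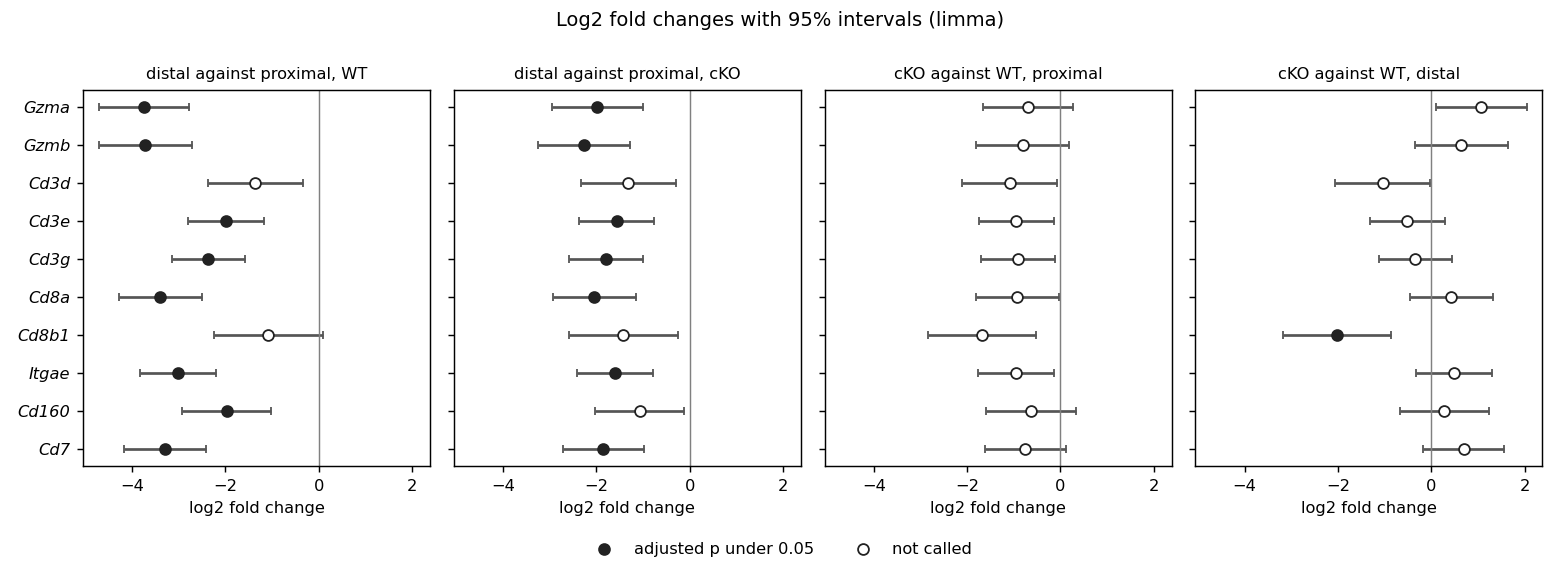
Log2 fold change of each gene in the 4 pairwise comparisons, with its 95% interval from limma; filled points passed at adjusted p under 0.05 and open points did not. All 10 points lie below 0 in both segment comparisons and in the proximal genotype comparison, and in the distal genotype comparison 6 lie above 0 and 4 below, with Cd8b1 the 1 gene called.

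The next comparison asked what the cKO changed in the proximal segment. None of the 10 genes passed (limma, adjusted p under 0.05), where 8.26% of all genes did, 4.05% being lower. All 10 log2 fold changes were negative, from -0.63 for Cd160 to -1.68 for Cd8b1, with a median of -0.92 against 0.08 over all genes. At an unadjusted p under 0.05 the count was 6, all lower, where 11.5% of all genes were lower at that level; edgeR called 1 gene lower (Cd8b1; 4.52% of all genes) and DESeq2 called 4 (Cd3e, Cd3g, Cd8b1 and Itgae; 8.81%). Cd8b1 stood at 37.4, 17.0 and 27.0 in cKO against 45.3, 135 and 101 in WT proximal libraries. It was the 1 gene of the 10 whose groups did not overlap, a pattern shown in this direction by 13.3% of all genes, and it missed the threshold (3.21-fold lower, SE 0.54 on the log2 scale, adjusted p = 0.0706).

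The other 9 genes overlapped between genotypes, with WT proximal 1 low and cKO proximal 1 high. Gzma, for example, was 5791 in WT proximal 1 and 10966 in cKO proximal 1, while the other WT libraries held 16009.7 and 13417 and the other cKO libraries 4644 and 5792. Without WT proximal 1, 3 genes were called lower, as were 3.95% of all genes: Cd3g (-1.32, adjusted p = 0.0340), Cd8b1 (-2.13, adjusted p = 0.0348) and Itgae (-1.34, adjusted p = 0.0388). Without both proximal libraries numbered 1, a setting chosen after the values were seen, 6 were called lower: Cd3d, Cd3e, Cd3g, Cd8b1, Itgae and Cd7, where 3.46% of all genes were. The granzymes, Cd8a and Cd160 were not called in any of the limma fits of this comparison. Leaving out any other library gave 0.

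In the distal genotype comparison Cd8b1 fell from 28.0, 47.3 and 47.4 in WT distal to 13.8, 3.32 and 14.9 in cKO distal libraries (4.06-fold lower, log2 fold change -2.02, SE 0.54, adjusted p = 0.0147). It was the 1 gene of 10 called, where 25% of all genes were called in either direction and 11.7% were lower. It was also the 1 whose groups did not overlap, as for 15.9% of all genes in this direction. These values rest on 22 to 45 reads per WT and 3 to 13 reads per cKO distal library. The call ended without WT distal 2 (-1.90, adjusted p = 0.0593), without cKO distal 2 (-1.41, adjusted p = 0.0618) and when the fit included the mitochondrial share (-1.54, adjusted p = 0.227).

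Gzma stood at 2316, 2349.8 and 887 in cKO distal against 549, 1109.8 and 845 in WT distal libraries. The 2 higher cKO values lay above all WT values, and cKO distal 3 lay among them. The log2 fold change was 1.07 (SE 0.45, adjusted p = 0.0994), and without cKO distal 3 it was 1.54 and passed (adjusted p = 0.0197), where 16.4% of all genes were called higher. Gzmb (0.65, adjusted p = 0.340), Cd7 (0.70, adjusted p = 0.235), Itgae (0.48, adjusted p = 0.387), Cd8a (0.43, adjusted p = 0.485) and Cd160 (0.28, adjusted p = 0.692) had positive and Cd3d (-1.04, adjusted p = 0.129), Cd3e (-0.52, adjusted p = 0.344) and Cd3g (-0.34, adjusted p = 0.544) negative log2 fold changes. The intervals of these 8 and Gzma were wide, as for Cd8a from -0.45 to 1.32, and the signs of Gzmb, Cd8a and Cd160 turned when the fit included the mitochondrial share. cKO distal 3, the lowest library for 9 genes, had a mitochondrial share of 27.7%, against 11.5% and 9.95% in the other cKO distal libraries; its part in the result was not tested beyond these fits.

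Whether the genotype difference itself differed between segments was tested by the interaction, the distal minus the proximal log2 fold change. None of the 10 genes passed in the fit without a block, where 0.576% of all genes did. At an unadjusted p under 0.05 the count was 5, all positive (Gzma, Gzmb, Cd8a, Itgae and Cd7; 4.94% of all genes were positive at that level), and edgeR and DESeq2 each called 0 (0.344% and 4.09% of all genes). Of the 10 values 9 were positive, with a median of 1.13 against -0.00281 over all genes; the exception was Cd8b1 at -0.34. Gzma had the highest, 1.77 (SE 0.64, adjusted p = 0.230), which is the difference between a 13.4-fold drop along the WT intestine and a 3.94-fold drop along the cKO intestine. Cd3d stood at 0.05 and Cd3e at 0.43.

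With the sample name as a block, 4 genes passed, all positive, where 0.774% of all genes were called in that direction. These were Cd7 (1.45, SE 0.27, adjusted p = 0.0226), Cd8a (1.35, SE 0.29, adjusted p = 0.0330), Gzma (1.77, SE 0.39, adjusted p = 0.0368) and Itgae (1.42, SE 0.31, adjusted p = 0.0368). Gzmb came next at 1.46 (SE 0.40, adjusted p = 0.0839), and the other 5 genes had adjusted p from 0.241 to 0.966. In each of the 4 genes called, the proximal to distal drop in log2 units was smaller in cKO than in WT tissue: 1.85 against 3.29 for Cd7, 2.04 against 3.40 for Cd8a, 1.98 against 3.74 for Gzma and 1.59 against 3.02 for Itgae.

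Ratios between 2 genes in the same library were taken as (value + 1) over (value + 1). The scaling of the library then enters only through the added 1, which matters where values are small, as for Cd8b1. They were computed for 11 gene pairs in 4 comparisons, 44 in all. With 3 libraries against 3 the two-sided exact permutation test cannot go below p = 0.1; 24 of the 44 reached it, and the smallest adjusted p was 0.183, so no ratio passed. Gzma to Cd3e was 19.0, 25.0 and 23.7 in the WT proximal libraries and 29.4, 25.6 and 25.2 in the cKO proximal ones. In the distal segment the WT libraries gave 5.39, 6.40 and 8.46 and the cKO libraries 19.7, 23.8 and 17.1. WT distal libraries thus lay apart from the other 3 groups, with a ratio 3.02-fold lower than in cKO distal libraries.

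Cd8a and Itgae showed the same order of groups relative to Cd3e. Cd8a to Cd3e was 4.06 to 4.83 in WT proximal and 4.39 to 4.69 in cKO proximal, 1.14 to 2.20 in WT distal and 3.14 to 3.53 in cKO distal libraries. Itgae to Cd3e was 3.46 to 4.25, 3.71 to 3.97, 1.39 to 2.52 and 3.06 to 4.43 in the same order. Per CD3 epsilon transcript, WT distal libraries therefore held the least Cd8a and Itgae, with no overlap with any other group. Cd3d and Cd8b1 did not follow this order: Cd3d to Cd3e was 0.857 to 1.67 in WT distal against 0.672 to 0.795 in WT proximal libraries, and Cd8b1 to Cd3e was 0.278 to 0.484 against 0.152 to 0.212. Cd160 to Cd3e (exact permutation p = 1) and Cd3g to Cd3e (exact permutation p = 0.2) overlapped between WT segments.

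Cd8b1 to Cd8a ran the other way. It was 0.0374 to 0.0440 in WT proximal, 0.0212 to 0.0260 in cKO proximal, 0.142 to 0.249 in WT distal and 0.0137 to 0.0864 in cKO distal libraries. WT distal libraries thus held the most beta chain transcript per alpha chain transcript, and cKO libraries lay below WT libraries of the same segment without overlap (1.70-fold in proximal and 5.48-fold in distal tissue). The cKO distal ratio rested on 3 to 13 reads of Cd8b1 and spread widely between libraries.

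**Figure D3:**
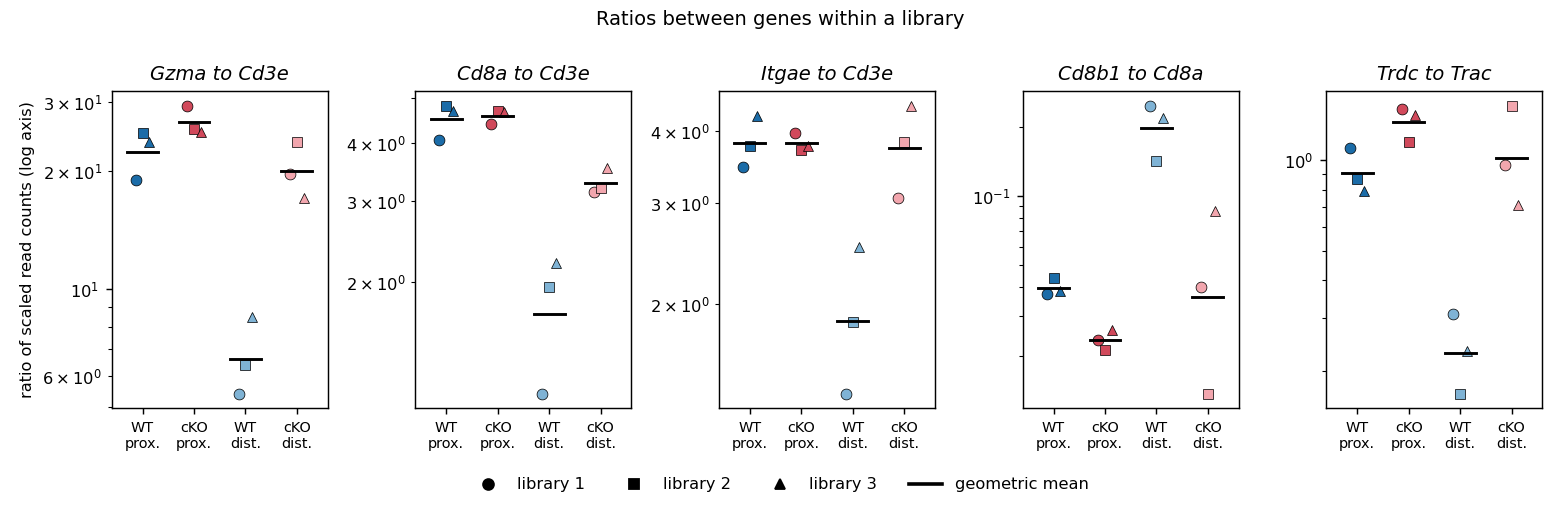
Ratio of 2 genes within each library (log axis), by group, with a bar at the geometric mean; Trdc and Trac are the constant genes of the delta and alpha T cell receptor chains. WT distal libraries lie below the other 9 for Gzma, Cd8a and Itgae to Cd3e and for Trdc to Trac, and above them for Cd8b1 to Cd8a.

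The constant genes of the T cell receptor chains lie outside the 10 and were singled out after their values were seen. In WT tissue those of the delta and gamma chains fell from proximal to distal, Trdc from 234 ± 82.2 to 35.3 ± 8.90 (SD, n = 3; log2 fold change -2.65, adjusted p = 0.000299) and Tcrg-C1 from 646 ± 236 to 85.9 ± 32.5 (-2.89, adjusted p = 0.000252), with Tcrg-C2 at -2.67 (adjusted p = 0.00131) and Tcrg-C4 at -2.82 (adjusted p = 0.000448). Trac, of the alpha chain, stood at 267 ± 119 and 169.8 ± 93.2 (-0.67, adjusted p = 0.290), and the beta chain genes Trbc1 (-0.83, adjusted p = 0.144) and Trbc2 (-0.90, adjusted p = 0.143) were not called either. With the sample name as a block all 3 were called lower (adjusted p = 0.0485, 0.0286 and 0.0220), and Trbc2 also without WT proximal 1 (adjusted p = 0.0272). In cKO tissue limma called Trdc (-1.85), Tcrg-C1 (-1.90), Tcrg-C4 (-1.59), Trac (-1.45) and Trbc1 (-1.38) lower in the distal segment. Trbc2 (-1.15) and Tcrg-C2 (-1.42) were not called, and 6.36% of all genes were lower. The block called all 7 lower (8.89% of all genes). With 1 library left out, adjusted p in limma reached 0.192 for Trac, 0.173 for Trbc1, 0.161 for Tcrg-C4, 0.0518 for Tcrg-C1 and 0.0461 for Trdc. Between genotypes in the distal segment Trac fell (-1.74, adjusted p = 0.00951; adjusted p = 0.0559 without WT distal 2 and 0.0938 when the fit included the mitochondrial share), as did Trbc1 (-1.69, adjusted p = 0.00638) and Trbc2 (-1.42, adjusted p = 0.0239). The call of Trbc2 ended without WT distal 2 (adjusted p = 0.118), cKO distal 1 (0.0545) or cKO distal 3 (0.0637) and when the fit included the mitochondrial share (0.122). Trdc (0.40, adjusted p = 0.492), Tcrg-C1 (0.45, adjusted p = 0.461), Tcrg-C2 (0.20, adjusted p = 0.804) and Tcrg-C4 (0.29, adjusted p = 0.678) were not called. In the interaction limma called 0 of these 7 genes (0 at an unadjusted p under 0.05), and the differences between these genes were not tested beyond the ratio that follows. The ratio of Trdc to Trac was 0.795 to 1.10 in WT proximal, 1.15 to 1.48 in cKO proximal, 0.168 to 0.310 in WT distal and 0.714 to 1.52 in cKO distal libraries (smallest adjusted p = 0.183, exact permutation test).

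Of 53 measured genes on a wider list of T cell and intraepithelial lymphocyte genes, 24 fell and 6 rose from WT proximal to WT distal tissue (median -1.06), where 12.2% of all genes fell and 11.9% rose. The genes lower in distal tissue included Klrd1, the CD94 lectin receptor (-3.34, adjusted p = 1e-05), Fasl, the Fas ligand (-3.87), Il2rb, a receptor chain for interleukins 2 and 15 (-2.73), and Ctsw, a cathepsin of cytotoxic lymphocytes (-2.60). The 6 that rose, named after their values were seen, were Icos (3.09), Cd2 (2.53), Cd28 (2.16), Ctla4 (1.67), Tcf7 (1.61) and Itgal (1.57). Icos, Cd28 and Ctla4 are costimulatory or inhibitory receptors, Tcf7 encodes the transcription factor TCF-1, and Cd2 and Itgal encode adhesion molecules. Itgal and Cd2 are also made by other leukocytes.

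In cKO tissue 22 of the 53 fell and 0 rose along the same axis (median -1.26), where 6.36% of all genes fell and 4.16% rose, led by Il2rb (-2.34), Klrd1 (-1.78), Fasl (-2.35) and the perforin gene Prf1 (-2.09). With the sample name as a block 34 fell, and 6 did without cKO proximal 1, 13 without cKO proximal 3, 12 without cKO distal 2, 13 without cKO distal 3 and 6 without both cKO libraries numbered 1. Of all genes 8.89% were called lower with the block, 3.58% without cKO proximal 1, 4.7% without cKO distal 3 and 3.22% without both cKO libraries numbered 1. Between genotypes in the distal segment 21 fell and 2 rose (median -0.99), where 11.7% of all genes fell and 13.3% rose. The genes with the smallest p were Itgal (840 ± 240.4 to 88.5 ± 17.5, SD, n = 3), Cd28 (79.5 ± 32.9 to 5.90 ± 0.803), Cd2 (208 ± 106 to 9.96 ± 3.25) and Tcf7 (538 ± 184 to 69.4 ± 25.2), and all 4 had risen along the WT intestine. The 2 that rose were Jaml, an adhesion molecule of epithelial lymphocytes (1.42), and Bcl11b (0.78). Adding the mitochondrial share to the fit left 11 that fell and 0 that rose.

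In the proximal segment 5 of the 53 fell in cKO (Cd6, Itgal, Klrd1, Cd4 and Skap1) and 0 rose (median -0.95), where 4.05% of all genes fell and 4.21% rose. Left-out libraries moved this count to 17 without WT proximal 1, 9 without cKO proximal 1, 0 without WT proximal 2 or cKO proximal 2, and 1 without WT proximal 3 (a gene called higher) or cKO proximal 3. It was 27 without both proximal libraries numbered 1, 23 in DESeq2 and 8 in edgeR. Of all genes 3.46%, 8.81% and 4.52% were called lower in these fits, in that order, and 3.95% without WT proximal 1. The interaction called 1 gene, Cd28 (-2.98, SE 0.55, adjusted p = 0.0339), negative where 9 of the 10 members were positive; the call ended when any 1 of 7 libraries was left out, namely WT proximal 1 or 2, WT distal 2, cKO proximal 1 or 3, or cKO distal 1 or 2 (highest adjusted p = 0.103).

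**Figure D4:**
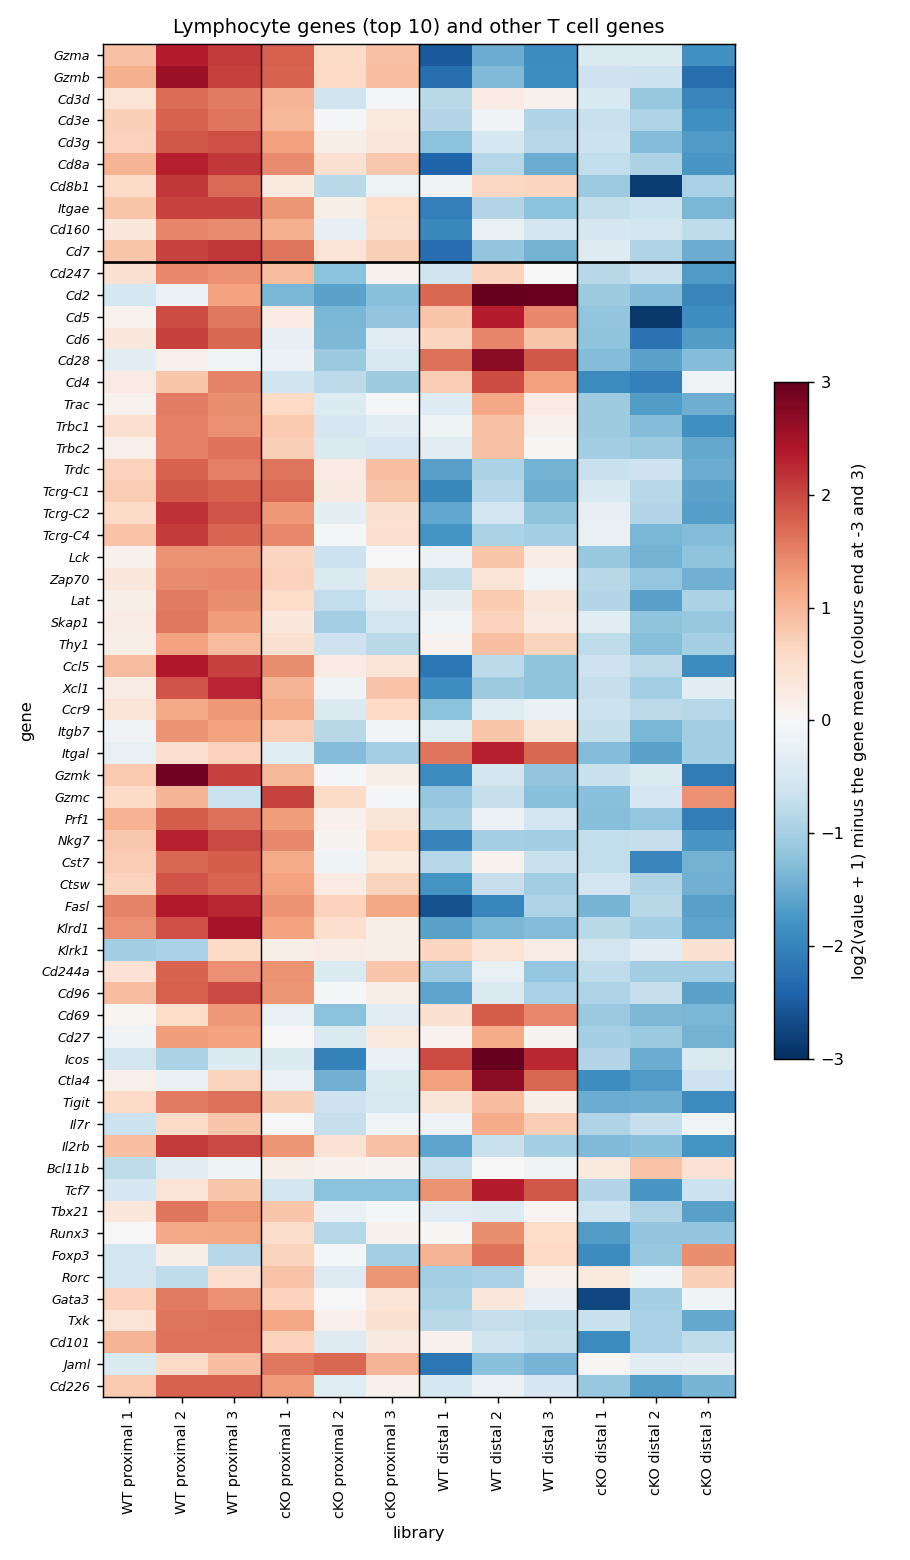
Log2(value + 1) minus the gene's mean over the 12 libraries, for the 10 genes (above the line) and 52 other T cell genes (below), one column per library in the order of the groups. The 10 genes are high in WT proximal 2 and 3 and below their means in the distal libraries, except Cd3d and Cd8b1 in WT distal 2 and 3, while Cd2, Cd28, Icos, Ctla4, Itgal and Tcf7 are highest in the WT distal libraries.

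Markers of other cells moved between the groups too. B cell genes summed to 7484 to 23281 scaled reads in WT distal libraries, 691 to 3666 in WT proximal, 237 to 462 in cKO proximal and 163 to 541 in cKO distal libraries. All 10 B cell genes rose along the WT intestine and all 10 fell in cKO distal against WT distal tissue. Of all genes, 11.9% were called higher along the WT intestine, 11.7% lower in cKO distal and 4.05% lower in cKO proximal tissue. Of 9 pan-leukocyte genes 6 rose along the WT intestine (3 without WT distal 2), all 9 fell in cKO distal tissue and 7 fell in cKO proximal tissue, the last count being 0 without any of WT proximal 2, WT proximal 3, cKO proximal 2 or cKO proximal 3. The 10 lymphocyte genes summed to 12706.5 to 33521 in WT proximal, 9410.2 to 21439 in cKO proximal, 1559.8 to 3226 in WT distal and 2014 to 4751 in cKO distal libraries, so their distal levels overlapped between genotypes where the B cell levels did not. Myeloid genes summed to 12897 to 20143.7 in WT proximal, 3821 to 5280 in cKO proximal, 7103 to 27268 in WT distal and 4548 to 7547 in cKO distal libraries, and of 14 measured 7 fell in cKO proximal and 5 in cKO distal tissue, led by C1qa in both (3 and 2 when the fit included the mitochondrial share). Of the follicle and T zone genes, Cxcr5, Ccr7 and Spib rose along the WT intestine (log2 fold changes 3.46, 3.17 and 1.01) and fell in cKO distal against WT distal tissue (-5.48, -3.50 and -3.54), where Cxcl13 also fell (-3.93) and Ccl20 rose (2.10). Fewer genes of this list were called in the latter comparison when the fit included the mitochondrial share. Fibroblast and muscle genes summed to 18112 and 21788 in the WT proximal and WT distal libraries numbered 1, the libraries lowest in their groups for most of the 10 genes (Cd3e in WT distal tissue was lowest in library 3), against 2677 and 1867 in those numbered 3. The part of these cell types in the values of the 10 genes was not tested.

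Among natural killer and innate lymphoid genes, Ncr1 stood at 0.932 to 15.1 and Eomes at 0.830 to 8.98 scaled reads over the 12 libraries, while Klrb1c reached 81.7 and Fcgr3, which myeloid cells also express, 618. The lowest value of Ncr1 and that of Eomes each come from a library without reads of the gene. The list summed to 1092 to 1349 in WT proximal, 573 to 984 in cKO proximal, 395 to 566 in WT distal and 399 to 861 in cKO distal libraries. Of 11 measured natural killer and innate lymphoid genes 1, Areg, which encodes amphiregulin and is also made by other cell types, fell from WT proximal to WT distal tissue (-3.19) and 0 rose, where 12.2% of all genes fell; 3 fell without WT proximal 1 and 2 without WT distal 3, and 1 rose without WT distal 1. In cKO proximal tissue Klrb1c, Klrb1b and Klra7 fell, where 4.05% of all genes fell. That count was 0 without WT proximal 2, WT proximal 3, cKO proximal 2 or cKO proximal 3. In cKO proximal libraries 1 to 3 Klrb1b stood at 9.09, 3.18 and 0.932 scaled reads and Klra7 at 1.01, 3.18 and 0.932. The values 1.01 and 0.932 mean no reads. In cKO distal tissue Klrb1c and Klrb1b fell and Areg rose, where 11.7% of all genes fell and 13.3% rose. Klrb1b stood at 1.06 to 4.15 scaled reads there, the lowest value being that of a library without reads of it. Klrb1c, which encodes NK1.1, was 5.15-fold lower in cKO than in WT tissue in the proximal and 5.08-fold lower in the distal segment. It stood at 7.42 to 17.2 scaled reads in cKO proximal and 2.13 to 10.8 in cKO distal libraries, so these folds rest on few reads.

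Epithelial genes that act on intraepithelial lymphocytes were followed as well. Btnl1 encodes a butyrophilin-like protein that maintains gamma delta intraepithelial lymphocytes, Il15 encodes their survival cytokine, and Cdh1 encodes E-cadherin, the ligand of CD103. Of 14 such genes 7 fell and 0 rose from WT proximal to WT distal tissue, Btnl1 from 5873 ± 1498 to 2074 ± 659.6 (SD, n = 3; log2 fold change -1.52, adjusted p = 0.00125), Btnl2 by 1.63, Il15 by 1.41 and Sectm1a by 1.27 on the log2 scale. In that comparison 12.2% of all genes fell. In cKO tissue 0 of the 14 were called between segments by limma, where 10.5% of all genes were (edgeR 0, DESeq2 1). At an unadjusted p under 0.05 the limma count was 5, 2 higher and 3 lower, where 24.1% of all genes passed in either direction. In cKO against WT distal tissue 7 rose and 0 fell, where 13.3% of all genes rose, led by Btnl1 (1.47, adjusted p = 0.00155), Cdh1 (1.69), Sectm1a (1.37) and Ocln (1.27); the count was 4 without both cKO libraries numbered 1 and 0 when the fit included the mitochondrial share. General epithelial genes were higher in the same comparison: 3 of 9 rose (Elf3, Krt19 and Epcam), 8 of 9 had positive values, and they summed to 180341 to 289117 in cKO distal against 127720 to 211375 in WT distal libraries. That count of 3 was 1 without WT distal 1 and 0 without WT distal 2, without cKO distal 1, with only the 2 groups compared in the fit or when the fit included the mitochondrial share. In the proximal genotype comparison 0 of 14 were called by limma, where 8.26% of all genes were. At an unadjusted p under 0.05 the limma count was 3, 2 higher and 1 lower, where 25.2% of all genes passed in either direction. edgeR and DESeq2 each called 1 lower, where they called 4.52% and 8.81% of all genes lower.

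**Figure D5:**
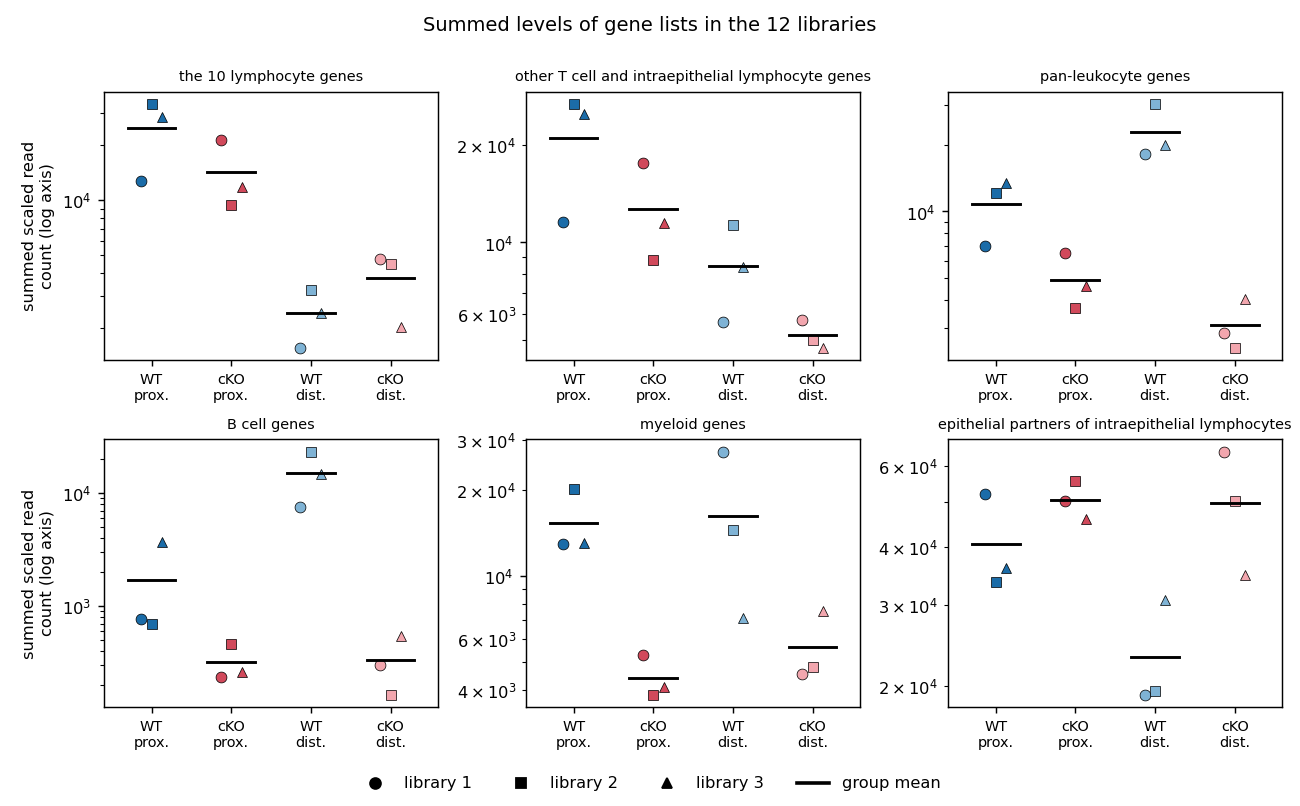
Summed scaled read count (log axis) of 6 gene lists in the 12 libraries, by group, with a bar at the group mean. The 10 lymphocyte genes are highest in proximal tissue, B cell and pan-leukocyte genes are highest in WT distal tissue, and the epithelial partner genes are lowest there.

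Most of the 10 genes tracked each other closely, and Cd8b1 did so less. With group means removed, correlations of pairs with Cd8b1 ran from 0.264 to 0.620, and those of pairs without it from 0.723 upward. Over the 12 libraries the Pearson correlation of log2(value + 1) for the 45 pairs ran from 0.431 to 0.995 (median 0.924), and from 0.264 to 0.987 (median 0.912) after group means were removed. These are descriptions over 12 libraries that share tissue and depth. The genes most like the mean of the 10, among 12572 genes with a mean value of at least 20, were Ctsw (r = 0.994), Ccl5, a chemokine (0.992), Nkg7, a granule protein gene (0.991), and Tcrg-C2 (0.988), followed by Cd96, Tcrg-C4, Gpr55, Il2rb, Ppp2r2c and Adrb1 (0.987 to 0.980). With group means removed they were Ctsw (0.995), Dtx1 (0.983), Tcrg-C1 (0.981) and Tcrg-C2 (0.977), then, among others, Ccl5, Nkg7, Il2rb, Zap70 and Gvin1 (0.973 to 0.955). For comparison, Trdc correlated at 0.970 and Trac at 0.734 over the 12 libraries, and the leukocyte gene Ptprc at 0.317. With group means removed these genes lay closer together, Trdc at 0.938, Trac at 0.912 and Ptprc at 0.848.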

How the data were processed

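The labels' protocols give Trizol for the RNA and the Ovation RNA-Seq System V2 for library making. The submitters' processing notes name STAR, with no version, DESeq2 1.28.1 and mm10; the counting program and its strand setting are not given in the sources used here. The deposited sample values are a signal, reads scaled for each library: all 206100 were whole multiples of their column's step (within 0.001 steps), 10499 at 1 step, and were read as (read count + 1) over a size factor. All 12 sample columns were matched by name. The authors' deposited log2 fold change, its standard error, Wald score, p-value and adjusted p-value were not used.

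limma 3.58.1 (R 4.3.3; trend) was fitted to log2(value + 1) of 17175 genes with 4 group means over 12 libraries, and p was adjusted over all genes by Benjamini-Hochberg (threshold 0.05). A filter that kept genes reaching 1 in at least 3 libraries removed none. It could not remove any, since a gene without reads stands at its column's step, which was above 1 in most libraries. The added 1 shrinks fold changes where reads are few. The script was tested on simulated data. Genotypes were compared within each segment, segments within each genotype, and the difference between the 2 genotype effects was tested as the interaction. Alternatives were edgeR 4.0.16 and DESeq2 1.42.0 on recovered reads, pseudocounts of 0.5 and 5, a filter of 10 reads, TMM factors, the mitochondrial share as a covariate, replicate blocks, only the 2 groups compared, and left-out libraries.

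The sample name was made of the genotype and the library number, so it is shared between the segments of a genotype. The titles give a number and no mouse. Libraries of 1 name deviated together from their group means over 12582 genes (WT pairs at r = 0.383, 0.292 and 0.374, cKO pairs at r = 0.2415, 0.311 and 0.4345). Each of the 12 libraries was compared only with the libraries of its own genotype in the other segment, and among those its namesake was closest. The names were therefore taken as pairs, a choice that rests on these same data. Positions and exon overlaps come from GENCODE M21 and promoters from RefSeq (GRCm38.p6).

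Members and gene lists were chosen with earlier results of these data known. All 10 members are described; of each other list up to 4 genes with the smallest p in the comparison are named, called genes first, and of all genes the 10 with the highest r to the members' mean. Some genes that the rule selects are not reported here. Genes named outside this rule were chosen after their values were seen.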

Additional observations from a re-analysis of the deposited data

Results flagged for a closer look

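In 5 genes the genotype difference itself differed between the distal and the proximal segment by a test of that difference (limma interaction), in a fit with or without the sample name as a block. With the sample name as a block it was 1.77 in Gzma (adjusted p = 0.0368), 1.35 in Cd8a (adjusted p = 0.0330), 1.42 in Itgae (adjusted p = 0.0368) and 1.45 in Cd7 (adjusted p = 0.0226), all on the log2 scale. Without the block the same 4 values had adjusted p from 0.230 to 0.334 and did not pass, and edgeR and DESeq2 called none of these 4. In Cd28, a costimulatory receptor gene on the wider T cell list, it was -2.98 without a block (adjusted p = 0.0339), the opposite sign: Cd28 was 79.5 ± 32.9 in WT distal and 5.90 ± 0.803 in cKO distal libraries (SD, n = 3). This call ended in several limma fits with a single library left out (highest adjusted p = 0.103) and without both cKO libraries numbered 1 (adjusted p = 0.199).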

How the results depend on the processing

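Over the 10 genes, 5 comparisons and all alternatives, 882 of 940 gene values kept their direction and their side of the threshold, 32 newly passed, 13 no longer passed and 13 changed sign. These alternatives include a fit without the filter, which is the same as the reported fit and could not differ from it. The number of the 10 genes called in the proximal genotype comparison, 0, was 1 with a pseudocount of 5, 1 in edgeR, 4 in DESeq2 and 6 without both proximal libraries numbered 1, and 0 to 3 with 1 library left out. In the distal genotype comparison the 1 call became 0 with the mitochondrial share as covariate and 0 to 2 with 1 library left out. In the cKO segment comparison the 7 calls became 4 without both cKO libraries numbered 1 and 3 to 7 with 1 left out. With the sample name as a replicate block the interaction called 4 genes in place of 0, and both segment comparisons called all 10. The block by library number, which does not pair libraries between genotypes (r from -0.201 to 0.0812), changed no call of the 10 genes. The cause of these changes was not tested.

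Signs turned in the distal genotype comparison with the mitochondrial share as covariate for Gzmb (-0.0867), Cd8a (-0.056), Cd160 (-0.0926), Trdc (-0.0388), Tcrg-C1 (-0.052), Tcrg-C2 (-0.288) and Tcrg-C4 (-0.0541), and with 1 library left out for Cd160 (-0.24 to 0.62), Tcrg-C2 (-0.144 to 0.561) and Tcrg-C4 (-0.0793 to 0.487); the last 2 stood at -0.144 and -0.0793 without both cKO libraries numbered 1. The interaction of Cd3d was -0.0214 with that covariate and -0.318 to 0.493 with 1 library left out, and that of Cd8b1 -0.668 to 0.271. Log2 ratios to Cd3e in the proximal genotype comparison ranged with 1 library left out from -0.0456 to 0.128 for Cd3g, -0.0554 to 0.0700 for Cd8a and -0.069 to 0.0784 for Itgae (-0.00780 with a pseudocount of 5). Those between cKO segments ranged from -0.537 to 0.866 for Cd8b1 and -0.155 to 0.111 for Itgae, that of Cd160 between WT segments from -0.307 to 0.409, and that of Cd8b1 to Cd8a between cKO segments from -0.0032 to 1.33. Genes called among all 17175 numbered 317 to 2304 (reported fit 1418) for the proximal and 1346 to 4954 (4297) for the distal genotype comparison. They numbered 2741 to 4935 (4137) for WT and 862 to 2762 (1806) for cKO segments, and 2 to 594 (99) for the interaction. TMM factors moved the median of all genes in the proximal genotype comparison from 0.08 to -0.03 and turned no sign among the 10 genes. Few reads limit the values of Cd8b1.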
